A study of Saccharomyces cerevisiae with 10 samples.

Results

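The ATG genes of the budding yeast Saccharomyces cerevisiae were followed in XH7, which the labels call the control strain, and in the evolved strain Z100, which they call adaptive, a design meant to find what changed in Z100. Members were all genes whose symbol in the deposited count table is ATG followed by a digit, 34 of 6059. Each strain was sampled at 30 °C and at 50 °C, the latter a heat shock of 1 h, which made 4 groups, with 2 libraries at either temperature for XH7 and 3 for Z100. The protocol says that cultures without heat shock were kept in an ice-water mixture, so growth at 30 °C and the time in ice water cannot be told apart in the groups labelled 30 °C. The labels name no genotype of either strain, no medium and no growth phase. Nor do they state whether each replicate was grown as a culture of its own. The p-values therefore take in only how far these libraries differ, and that variation could be technical.

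Autophagy is the route by which yeast encloses part of its cytoplasm in a double membrane and delivers it to the vacuole for breakdown. Under starvation the kinase complex TORC1 is turned down, the Atg1 kinase complex starts a membrane at a site beside the vacuole, Atg9 vesicles and lipid transfer feed it, and the ubiquitin-like protein Atg8 is joined to its lipids. Selective forms use receptor proteins that tie a cargo, such as mitochondria, peroxisomes, endoplasmic reticulum or vacuolar enzymes, to Atg8.

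The 10 libraries held 51901045 to 81442848 counts. A member had between 52 counts (ATG10 in Z100 50 °C replicate 1) and 121225 counts (ATG41 in Z100 50 °C replicate 3) in a library, with a median of 1602. The disaggregase gene HSP104, used to check the temperature labels, was at 135 to 320 CPM (read counts scaled to library size with TMM factors) in the 30 °C libraries and at 15777 to 25757 CPM in the 50 °C libraries. No member had a near-identical copy in the genome. ATG29 overlaps SET6 by 24 bases, and since the library kit does not mark the strand, reads of such partners cannot be told apart. CPM are shares of a library: fewer cells and less RNA per cell cannot be told apart from them. Library size as the only scaling shifted the median of all genes by -0.547 (log2) for heat in XH7 and by -0.631 in Z100, so fold changes of heat are relative to the average gene. Below, a gene is called at an adjusted p under 0.05 by edgeR's quasi-likelihood test over 6015 genes, and the value behind ± is the standard error of a log2 fold change, or an SD where so marked.

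Most ATG genes rose with heat in both strains. In XH7 21 of 34 rose and 2 fell, against 31.3% higher and 32% lower among all genes tested (63.3% in either direction). In Z100 20 rose and 4 fell, against 33.8% and 36.2% (69.9% in either direction). The median log2 fold change of the 34 was 1.26 in XH7 and 0.98 in Z100, beside 0.01 and -0.05 over all genes. The same 19 members rose in both strains, ATG5 and ATG9 fell in both, and 8 were called in neither: ATG4, ATG7, ATG11, ATG12, ATG18, ATG23, ATG36 and ATG38. The 8 had log2 fold changes of -0.78 to 0.50 in XH7 and -0.32 to 0.30 in Z100. With library size as the only scaling 16 rose and 5 fell in XH7, and 16 rose and 9 fell in Z100. Of all genes called with that scaling, 31.4% were higher in XH7 and 28.1% in Z100, against 49.4% and 48.3% with TMM. The median of the members then lay above that of all genes by 1.23 in XH7 and 1.04 in Z100. None of the members called here changed sign.

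**Figure D1:**
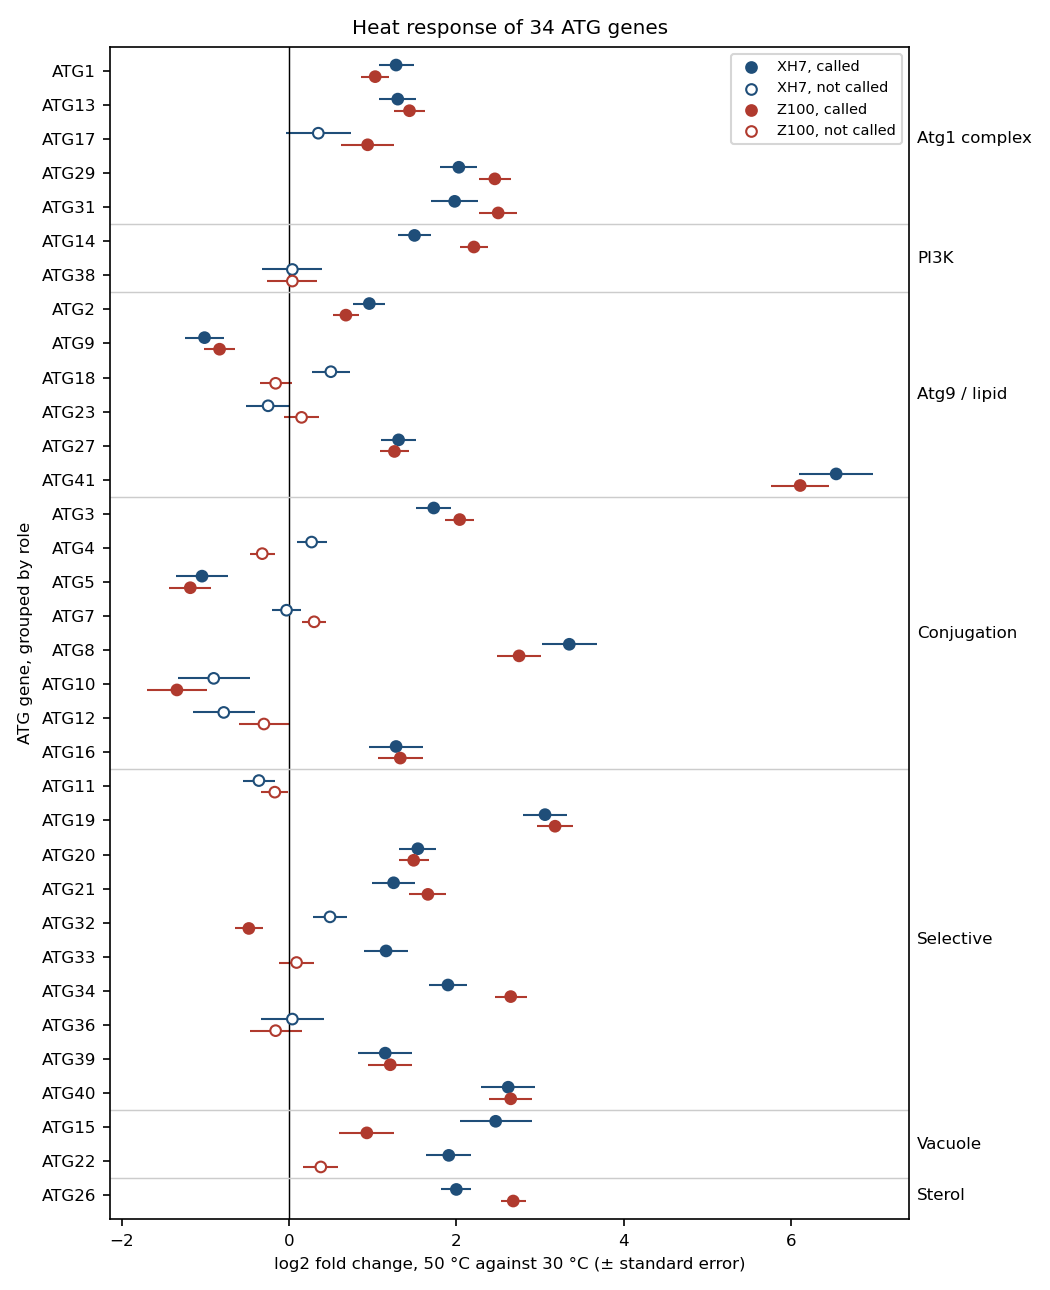
Log2 fold change of the 34 ATG genes at 50 °C against 30 °C in XH7 (blue) and Z100 (red), grouped by role, with standard errors as bars; filled points passed the test at an adjusted p under 0.05. ATG41 stands at 6.54 and 6.11, the other members lie between -1.34 and 3.35, and ATG15, ATG22 and ATG33 lie further right in XH7.

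The largest rise was that of ATG41 (YPL250C, chromosome XVI 74309 to 74719), which encodes a small protein that binds Atg9 and is needed for membrane formation. It was at 14.0 and 11.4 CPM in XH7 at 30 °C and at 889 and 1475 CPM at 50 °C. In Z100 it was at 37.8, 18.8 and 23.8 CPM at 30 °C and at 1807, 1679 and 2070 CPM at 50 °C. Every heat-shocked library was thus far above every 30 °C library, and the groups did not overlap. The log2 fold change was 6.54 ± 0.44 in XH7 (adjusted p = 1.8e-06, edgeR) and 6.11 ± 0.35 in Z100 (adjusted p = 3.3e-07, edgeR). The 34 genes together made up 606 to 757 CPM at 30 °C and 2313 to 3807 CPM at 50 °C. Without ATG41 these ranges were 595 to 734 and 1424 to 1737 CPM.

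Per gene length, ATG41 also took over the order of the members. By the authors' deposited FPKM, which are scaled to gene length and library total, ATG27 was the most abundant member at 30 °C, with 117 ± 0.226 (SD, n = 2) in XH7 and 142 ± 34.5 (SD, n = 3) in Z100. It held 17.4% and 17.9% of the summed FPKM of the 34 genes there. At 50 °C ATG41 came first with 2652 ± 1401 FPKM (SD, n = 2) in XH7 and 3453 ± 494 (SD, n = 3) in Z100, or 69.9% and 75.3% of the sum. It ranked 2864 among all genes of XH7 at 30 °C and 66 at 50 °C, and 1622 and 55 in Z100. ATG8 and ATG19 moved up to the third and the fourth place at 50 °C in both strains, and ATG9 came last in both. The median member was at 13.7 FPKM in XH7 at 30 °C, where the median gene was at 36.4, and at 20.2 FPKM after heat, where the median gene was at 23.3. In Z100 the median member was at 14.4 and 20.5 FPKM beside 31.8 and 20.1 for the median gene.

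**Figure D2:**
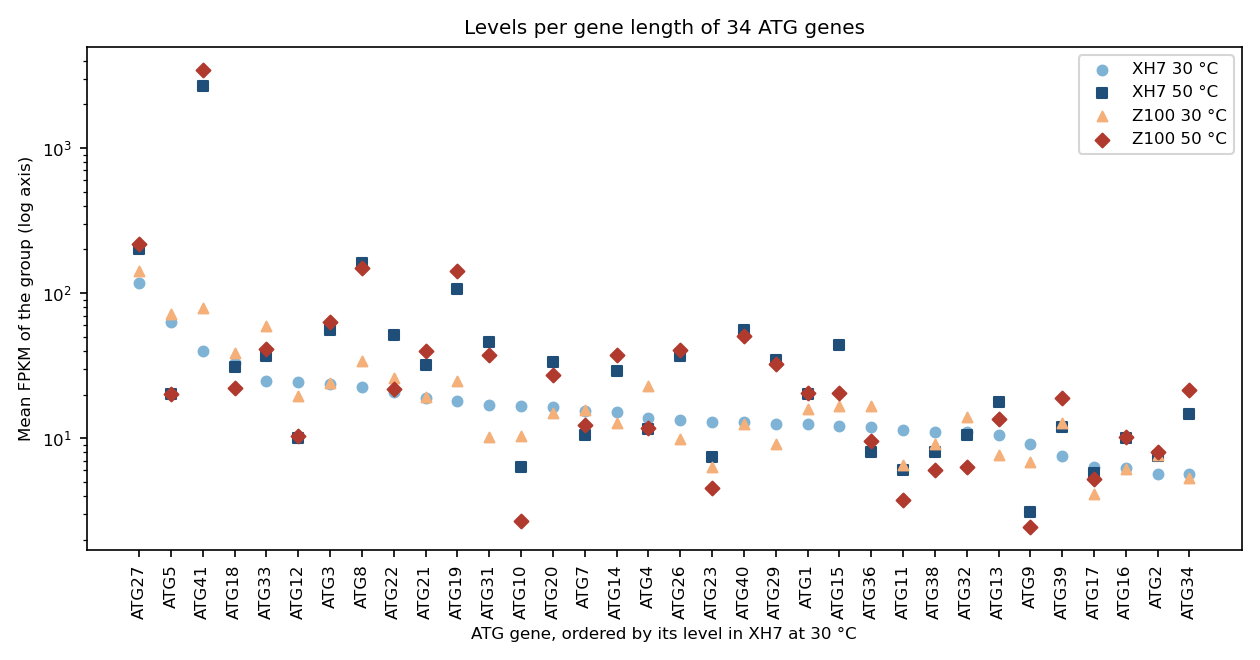
Mean deposited FPKM of each ATG gene in the 4 groups (log axis), ordered by the level in XH7 at 30 °C. ATG41 stands at 40.0 and 79.0 FPKM at 30 °C and at 2652 and 3453 FPKM at 50 °C, above all other members after heat, while ATG9 is lowest there at 3.09 and 2.46 FPKM.

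Promoter sequences of 5 members are shown because they cover the largest rise (ATG41), the Atg8 gene, the receptor genes ATG19 and ATG34 that lie side by side, and a gene that fell (ATG9). Each is the R64 sequence from 350 to 51 bases before the annotated start, 5′ to 3′ on the strand of the gene. Capitals mark matches, on either strand, to 5 motifs. The stress response element STRE, bound by the activators Msn2 and Msn4, was searched as AGGGG. The heat shock element, bound by Hsf1, was searched in a minimal form as GAANNTTC or as TTCNNGAA. The site of the amino acid regulator Gcn4 was searched as TGACTC. The core of URS1, an element bound by the repressor Ume6, was searched as AGCCGCC. The site of the nitrogen-responsive GATA factors was searched as GATAAG. GAANNTTC and TTCNNGAA can overlap each other. The windows are chrXVI:74770-75069 (minus strand), chrII:80782-81081 (minus strand), chrXV:168377-168676, chrXV:165364-165663 and chrIV:184575-184874, in this order.
ATG41: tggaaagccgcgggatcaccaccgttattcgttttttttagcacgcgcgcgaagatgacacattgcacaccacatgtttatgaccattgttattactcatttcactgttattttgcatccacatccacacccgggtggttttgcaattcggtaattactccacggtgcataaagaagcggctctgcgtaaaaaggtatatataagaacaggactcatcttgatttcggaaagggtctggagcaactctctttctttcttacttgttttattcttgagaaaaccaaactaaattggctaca
ATG8: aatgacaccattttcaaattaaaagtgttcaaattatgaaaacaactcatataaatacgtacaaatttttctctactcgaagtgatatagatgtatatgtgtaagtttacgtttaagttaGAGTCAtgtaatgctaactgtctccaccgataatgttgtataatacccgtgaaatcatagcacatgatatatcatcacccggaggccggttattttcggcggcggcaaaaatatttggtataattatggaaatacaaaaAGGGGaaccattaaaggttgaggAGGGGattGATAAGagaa
ATG19: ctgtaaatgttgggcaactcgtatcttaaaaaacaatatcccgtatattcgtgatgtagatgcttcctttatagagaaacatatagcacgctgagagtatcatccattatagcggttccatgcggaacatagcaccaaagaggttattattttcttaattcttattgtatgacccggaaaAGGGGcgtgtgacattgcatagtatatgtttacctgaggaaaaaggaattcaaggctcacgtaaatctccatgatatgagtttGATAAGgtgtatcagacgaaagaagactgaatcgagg
ATG34: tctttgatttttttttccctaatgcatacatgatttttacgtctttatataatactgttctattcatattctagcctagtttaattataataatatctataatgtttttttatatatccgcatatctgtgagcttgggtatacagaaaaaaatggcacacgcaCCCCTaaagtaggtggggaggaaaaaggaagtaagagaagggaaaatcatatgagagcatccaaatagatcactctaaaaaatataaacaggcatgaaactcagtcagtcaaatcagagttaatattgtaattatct
ATG9: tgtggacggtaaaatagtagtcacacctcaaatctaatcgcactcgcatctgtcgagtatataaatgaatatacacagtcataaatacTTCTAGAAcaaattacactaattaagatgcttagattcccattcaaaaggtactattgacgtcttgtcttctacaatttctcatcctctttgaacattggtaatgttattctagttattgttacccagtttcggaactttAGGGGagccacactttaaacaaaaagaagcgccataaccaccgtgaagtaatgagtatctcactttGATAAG

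The ATG41 window held no match. ATG8 had AGGGG at 91 and at 68 bases before its start, GAGTCA at 230 and GATAAG at 60. ATG19 and ATG34 each had 1 STRE, at 170 and 187 bases before the start. ATG9, which fell, also had 1 STRE, at 122, and a heat shock element, TTCTAGAA, at 262. Over the 34 members, 15 (44.1%) held a STRE in this window, against 22.9% of 6001 protein-coding genes. GATAAG was in 11 (32.4% against 14.3%), the Gcn4 site in 5 (14.7% against 8.07%), the heat shock element in 8 (23.5% against 22.9%) and the URS1 core in 0 (against 2.5%). Of the 19 members that rose in both strains 10 held a STRE, of the 2 that fell in both 1 did, and of the other 13 there were 4. These are matches to the letters given, not sites shown to be bound, and sites with variant letters were not counted.

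The Atg1 kinase complex, which starts the process, had 4 of its 5 genes higher in XH7 and 5 of 5 in Z100. ATG1 (YGL180W, chromosome VII 160065 to 162758), the kinase itself, was at 25.9 and 25.8 CPM in XH7 at 30 °C and at 72.4 and 53.1 at 50 °C. In Z100 it was at 33.0, 38.5 and 36.4 CPM at 30 °C and at 88.1, 64.3 and 67.3 at 50 °C. In both strains all heated libraries were above all others, and the rises were 1.28 ± 0.21 and 1.03 ± 0.17 (adjusted p = 0.00046 and 0.00037, edgeR). ATG13, the regulatory subunit that TORC1 phosphorylates, rose by 1.30 ± 0.22 and 1.44 ± 0.18. In XH7 it lost its call with library size as the only scaling. ATG29 and ATG31, small subunits of the scaffold, rose by more: ATG29 by 2.03 ± 0.22 and 2.46 ± 0.19, and ATG31 by 1.98 ± 0.28 and 2.50 ± 0.23. Their partner ATG17, the scaffold protein, was at 5.10 and 7 CPM in XH7 at 30 °C and at 5.35 and 10.1 at 50 °C, so the groups overlapped (0.35 ± 0.39, adjusted p = 0.45, edgeR). In Z100 ATG17 was at 4.51, 4.34 and 4.23 CPM and then at 5.08, 10.3 and 9.63, with 1 heated library close to the 30 °C level (0.94 ± 0.32, adjusted p = 0.024, edgeR). That call ended without any of the 3 Z100 30 °C libraries or without Z100 50 °C replicate 2 or 3 (highest adjusted p 0.084), and with library size only. By FPKM, the XH7 means at 50 °C were 5.73 for ATG17, 34.6 for ATG29 and 46.1 for ATG31, and those at 30 °C 6.34, 12.6 and 16.9.

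The lipid kinase complex that marks the growing membrane has 2 subunits with an ATG symbol in the deposited table. ATG14 (YBR128C, chromosome II 493081 to 494115), the subunit that directs the complex to autophagy, went from 11.3 and 12.6 to 34.2 and 33.3 CPM in XH7. In Z100 it went from 11.5, 8.77 and 12.5 to 52.1, 46.5 and 53.0 CPM. The groups were far apart in both strains, with rises of 1.5 ± 0.20 and 2.21 ± 0.17 (adjusted p = 0.00011 and 1.7e-06, edgeR). The test of the difference between these rises gave 0.71 ± 0.25 (adjusted p = 0.13, edgeR). ATG38, which holds the complex together, was at 0.04 ± 0.36 and 0.04 ± 0.30, with overlapping libraries in both strains.

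Genes for Atg9 vesicles and lipid transfer went in both directions. ATG9 (YDL149W, chromosome IV 184925 to 187918), the transmembrane protein of the vesicles, was at 19.5 and 22.5 CPM in XH7 at 30 °C and at 10.7 and 10.2 at 50 °C. In Z100 it was at 19.4, 12.7 and 19.0 CPM and then at 9, 10.0 and 9.75. All heated libraries were below all others, and the log2 fold changes were -1.01 ± 0.23 and -0.83 ± 0.19 (adjusted p = 0.0033 and 0.0027, edgeR). The neighbours of ATG9 had larger falls: NOP14, on the opposite strand 235 bases beyond its end, was at -5.55 and -3.66, and RPC53, 313 bases before it, at -4.54 and -4.08. Their part in the ATG9 counts was not tested. ATG27, a membrane protein that travels with Atg9, rose by 1.31 ± 0.21 and 1.26 ± 0.17, and ATG2, the lipid transfer protein, by 0.96 ± 0.19 and 0.68 ± 0.16. ATG2 lost its call in both strains with library size only. ATG18, the phosphoinositide-binding partner of Atg2, and ATG23, another Atg9 trafficking factor, were called in neither strain. For ATG18 in XH7 (0.50 ± 0.23) this rested on 1 library: it was called without XH7 50 °C replicate 2 (0.93, adjusted p = 0.0012, edgeR) and was at 0.05 without replicate 1.

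Of the 8 genes of the ubiquitin-like conjugation systems, 3 rose in both strains, 1 fell in XH7 and 2 fell in Z100. ATG8 (YBL078C, chromosome II 80378 to 80731) encodes the protein that is joined to membrane lipid. It was at 5.44 and 6.75 CPM in XH7 at 30 °C and at 46.4 and 78.0 at 50 °C. In Z100 it was at 7.59, 9.93 and 12.7 CPM and then at 56.4, 74.8 and 73.0. The heated libraries all lay several-fold above the others, and the rises were 3.35 ± 0.33 and 2.75 ± 0.26, or 10.2-fold and 6.75-fold (adjusted p = 1.7e-05 and 7.4e-06, edgeR). ATG3, whose enzyme hands Atg8 to the lipid, rose by 1.73 ± 0.21 and 2.04 ± 0.17. ATG7, the activating enzyme of both branches, and ATG4, the protease that processes Atg8, were called in neither strain.

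In the Atg12 branch ATG5 (YPL149W, chromosome XVI 271310 to 272194), which receives Atg12, was at 43.1 and 42.3 CPM in XH7 at 30 °C and at 26.4 and 15.2 at 50 °C. In Z100 it went from 59.3, 37.3 and 62.5 to 26.5, 20 and 24.0 CPM. The groups did not overlap in either strain, and the log2 fold changes were -1.04 ± 0.31 and -1.18 ± 0.25 (adjusted p = 0.013 and 0.0018, edgeR). The XH7 call ended without XH7 30 °C replicate 1 (-1.02, adjusted p = 0.051) or XH7 50 °C replicate 2 (-0.61, adjusted p = 0.1). ATG10, whose enzyme transfers Atg12, was at 6.38 and 6.59 CPM and then at 2.68 and 4.28 in XH7 (-0.90 ± 0.43, adjusted p = 0.093, edgeR). In Z100 it was at 4.27, 4.37 and 4.54 CPM and then at 0.97, 1.49 and 2.73, again with no overlap (-1.34 ± 0.36, adjusted p = 0.0069, edgeR). ATG12 itself was at -0.78 ± 0.37 and -0.30 ± 0.30, not called. In XH7 it was called lower with library size only (-1.28, adjusted p = 0.045, edgeR) and without XH7 50 °C replicate 2 (-1.22, adjusted p = 0.031, edgeR), and was at -0.40 without replicate 1. ATG10 was called lower in XH7 with library size only (adjusted p = 0.035, edgeR) and without Z100 50 °C replicate 1 or 3. ATG16, which joins 2 Atg12-Atg5 units, rose by 1.28 ± 0.32 and 1.33 ± 0.27, from 1.73 and 2.55 to 5.95 and 4.46 CPM in XH7. In XH7 that call ended without XH7 30 °C replicate 1 (adjusted p = 0.063) and with library size only.

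Of the 10 genes for selective autophagy 7 rose in XH7, and 6 rose and 1 fell in Z100. ATG19 (YOL082W, chromosome XV 168727 to 169974) encodes the receptor that brings the aminopeptidase Ape1 and the mannosidase Ams1 to the vacuole. It went from 15.8 and 18.6 to 112 and 175 CPM in XH7 and from 28.3, 21.7 and 27.7 to 239, 209 and 255 CPM in Z100. No library of 1 temperature reached the other, and the rises were 3.06 ± 0.26 and 3.18 ± 0.21, or 8.34-fold and 9.05-fold (adjusted p = 7.5e-06 and 7.9e-07, edgeR). ATG34 (YOL083W, chromosome XV 165714 to 166952), the related receptor of Ams1, lies 1774 bases before ATG19 on the same strand. It went from 5.57 and 5.20 to 18.5 and 21.8 CPM in XH7 and from 5.55, 4.66 and 6.38 to 28.9, 37.3 and 37.7 CPM in Z100. Its rises, also without overlap, were 1.90 ± 0.23 and 2.65 ± 0.19 (adjusted p = 5.2e-05 and 1.2e-06, edgeR). The next genes on either side of this pair, PHM7 before and IRA2 after, had log2 fold changes of 5.68 and 4.13 in XH7 and of 6.78 and 4.73 in Z100, so 4 neighbours on 1 strand were all higher after heat. PHM7, 382 bases before ATG34, had a mean of 288 CPM in heated XH7 and of 948 CPM in heated Z100. The part of PHM7 and IRA2 in the counts of ATG34 and ATG19 was not tested.

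Both receptors for the endoplasmic reticulum rose. ATG40 (YOR152C, chromosome XV 617518 to 618288) went from 7.35 and 7.88 to 36.4 and 57.5 CPM in XH7, and from 9.37, 5.25 and 9.55 to 44.7, 51.6 and 56.0 CPM in Z100. The temperatures were clearly apart, with rises of 2.62 ± 0.32 and 2.65 ± 0.26 (adjusted p = 6.4e-05 and 1e-05, edgeR). ATG39 (YLR312C, chromosome XII 757637 to 758833), the receptor at the nuclear envelope, went from 6.34 and 7.43 to 11.0 and 19.6 CPM in XH7. In Z100 it went from 13.0, 9.52 and 15.6 to 28.9, 24.1 and 35.5 CPM. Its rises were smaller, 1.15 ± 0.32 and 1.21 ± 0.26 (adjusted p = 0.01 and 0.002, edgeR), again with no overlap within a strain. In XH7 the ATG39 call ended without XH7 30 °C replicate 1 (adjusted p = 0.073) or XH7 50 °C replicate 2 (0.77, adjusted p = 0.054), and in both strains with library size only.

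The 2 genes for removal of mitochondria had smaller changes, and neither was called in the same direction in both strains. ATG32 (YIL146C, chromosome IX 74184 to 75773), the receptor on the mitochondrial surface, was at 12.2 and 14.4 CPM in XH7 at 30 °C and at 17.4 and 20 at 50 °C (0.49 ± 0.20, adjusted p = 0.058, edgeR). In Z100 it was at 20.1, 18.4 and 17.5 CPM and then at 15.8, 12.4 and 11.9 (-0.48 ± 0.17, adjusted p = 0.026, edgeR). Within each strain the temperatures did not overlap, in opposite directions. The test of the difference gave -0.97 ± 0.26 (adjusted p = 0.065, edgeR). The XH7 value of ATG32 was called higher with RLE scaling (0.54, adjusted p = 0.038, edgeR), with DESeq2 (0.54, adjusted p = 0.018) and without Z100 50 °C replicate 1 (0.49, adjusted p = 0.036, edgeR), and it was -0.05 with library size only. DESeq2 also called the difference between the strains (adjusted p = 0.0066), as did edgeR without Z100 50 °C replicate 1 (adjusted p = 0.036). The Z100 call ended in the fit of the Z100 libraries alone and also when replicate 1 of Z100 at 30 °C, or replicate 2 or 3 of the heated Z100 libraries, was left out (highest adjusted p 0.088). ATG33 (YLR356W, chromosome XII 840321 to 840914), for a mitochondrial protein that promotes this process, was at 11.3 in both XH7 30 °C libraries and at 30.6 and 19.8 CPM after heat (1.16 ± 0.26, adjusted p = 0.0029, edgeR). Leaving out XH7 50 °C replicate 1 gave 0.81, and leaving out replicate 2 gave 1.53. In Z100 ATG33 was at 26.1, 38.6 and 25.7 CPM and then at 33.1, 32.0 and 31.1, with overlap (0.09 ± 0.21, adjusted p = 0.71, edgeR). With library size only the Z100 value was a called fall of ATG33, at -0.52 (adjusted p = 0.022, edgeR). The test of the difference gave -1.07 ± 0.33 (adjusted p = 0.092, edgeR).

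Among the general factors of selective autophagy, ATG20, a sorting nexin, rose by 1.54 ± 0.22 and 1.49 ± 0.18, and ATG21, a phosphoinositide-binding protein, by 1.25 ± 0.26 and 1.66 ± 0.22. The XH7 value of ATG21 was 0.79 without XH7 50 °C replicate 2, and its call there ended with library size only. ATG11 (YPR049C, chromosome XVI 661137 to 664673), the scaffold that joins receptors to the Atg1 kinase, was at 30.4 and 31.3 CPM in XH7 at 30 °C and at 23.8 and 24.2 at 50 °C. In Z100 it was at 21.9, 15.9 and 20.4 CPM and then at 17.3, 18.6 and 15.9, with overlapping temperatures. Heat gave -0.36 ± 0.19 and -0.17 ± 0.16, called in neither strain. With library size only ATG11 was called lower in both, at -0.91 and -0.81. ATG36, the receptor for peroxisomes, had libraries that overlapped in both strains. ATG26, for a sterol glucosyltransferase that other fungi need to remove peroxisomes, rose by 2 ± 0.18 and 2.68 ± 0.15. It was at 37.5 and 36.6 CPM and then at 154 and 143 in XH7, and at 29.7, 30.9 and 29.2 CPM and then at 218, 167 and 191 in Z100.

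Of the 2 genes for the last steps in the vacuole, both rose in XH7 and 1 in Z100. ATG15 (YCR068W, chromosome III 237214 to 238776), for the lipase that opens autophagic bodies, was at 15.7 and 13.7 CPM in XH7 at 30 °C and at 115 and 47.9 at 50 °C. In Z100 it was at 17.7, 28.8 and 20.4 CPM and then at 57.1, 38.9 and 31.7. The temperatures did not overlap within a strain, and the 2 heated XH7 libraries were far from each other. The rises were 2.47 ± 0.43 in XH7 (adjusted p = 0.00058, edgeR) and 0.93 ± 0.33 in Z100 (adjusted p = 0.029, edgeR). Leaving out XH7 50 °C replicate 1 gave 1.70 in XH7, and leaving out replicate 2 gave 3.05. The Z100 call ended without Z100 30 °C replicate 1 or 3 or Z100 50 °C replicate 1 (adjusted p up to 0.11) and with library size only. The difference between the strains' responses was -1.54 ± 0.53 (adjusted p = 0.11, edgeR).

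ATG22 (YCL038C, chromosome III 54941 to 56527), for a vacuolar transporter that releases amino acids to the cytosol, was at 27.0 and 23.5 CPM in XH7 at 30 °C and at 115 and 74.1 at 50 °C. In Z100 it was at 30.8, 35.2 and 39.2 CPM at 30 °C and at 54.9, 35.5 and 46.1 at 50 °C. Heat separated the XH7 libraries (1.91 ± 0.27, adjusted p = 0.00015, edgeR), while those of Z100 overlapped (0.38 ± 0.21, adjusted p = 0.14, edgeR, and -0.28 with library size only). With Z100 50 °C replicate 2 left out the Z100 rise passed the test (0.53, adjusted p = 0.049, edgeR), and likewise with XH7 50 °C replicate 2 left out (0.42, adjusted p = 0.048, edgeR). The difference of the heat responses, -1.53 ± 0.34 (adjusted p = 0.035, edgeR), was the only one that edgeR called over all 10 libraries among the 34 genes, where 2.64% of all genes were called lower and 1.63% higher (4.27% in either direction). DESeq2 called 2 higher (ATG14 and ATG26) and 4 lower (ATG15, ATG22, ATG32 and ATG33), with 841 genes called in all against 257 by edgeR. Without XH7 50 °C replicate 2 the edgeR differences of ATG21, ATG15, ATG18 and ATG33 were 0.918, -2.081, -1.046 and -1.389. Without replicate 1 of that group they were 0.021, -0.771, -0.214 and -0.717. Without Z100 50 °C replicate 1 edgeR called ATG22 and ATG32 lower. The ATG22 call ended without any of 8 of the 10 libraries, all but Z100 50 °C replicate 1 and XH7 50 °C replicate 2 (adjusted p up to 0.22). Replicate spread among the heated XH7 libraries was the widest: the median SD of log2 CPM over the 34 genes was 0.382 there and 0.142 in the unheated XH7 libraries, and for Z100 it was 0.207 at 30 °C and 0.183 after heat. Over all genes these medians were 0.319, 0.0908, 0.172 and 0.256. GID7, on the opposite strand 58 bases beyond the end of ATG22, had log2 fold changes with heat of 0.92 in XH7 and -0.01 in Z100. Its part in the ATG22 counts was not tested.

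**Figure D3:**
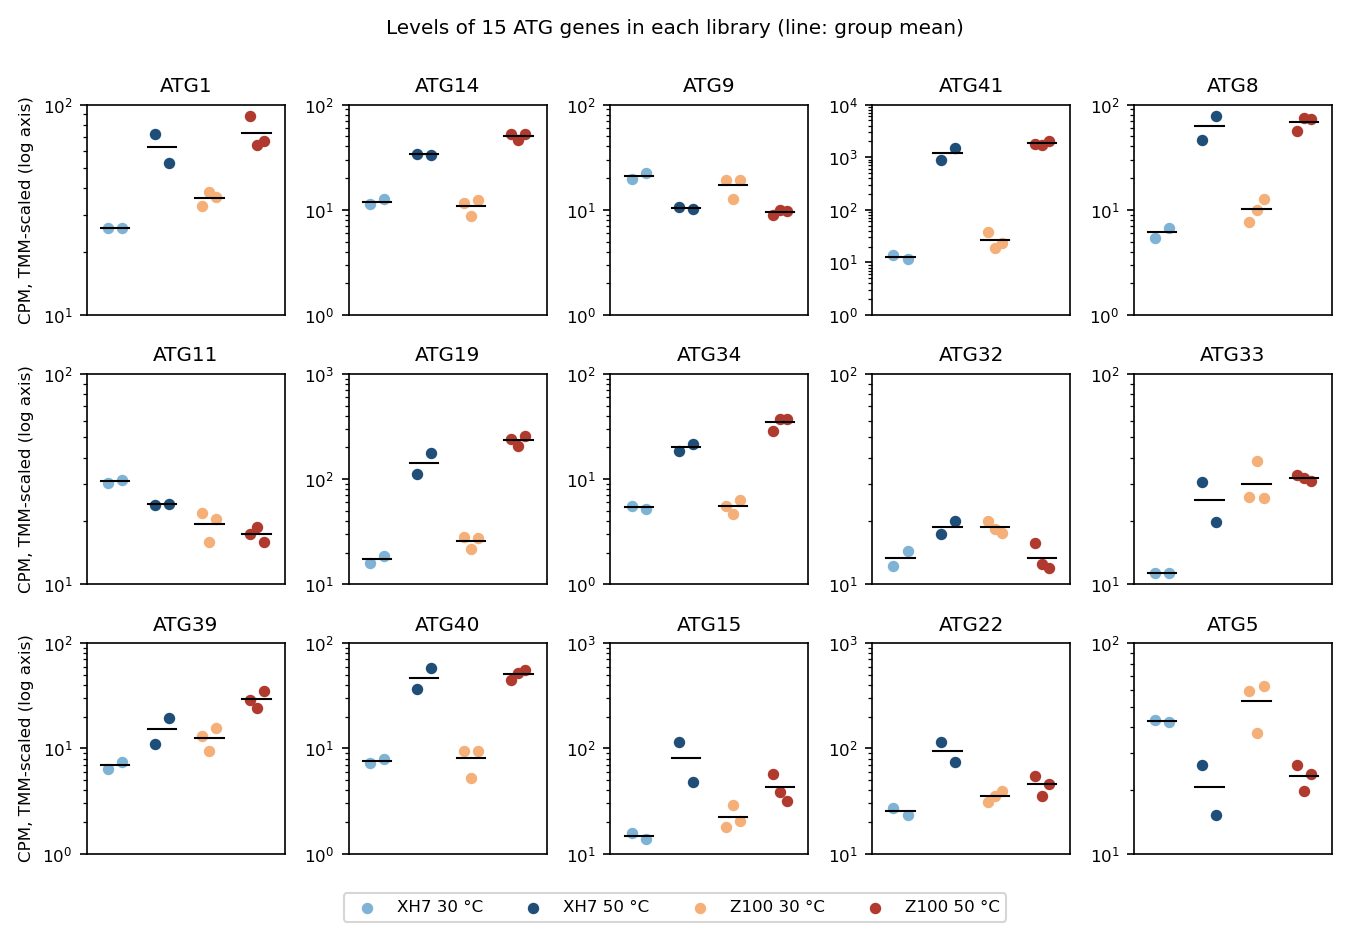
CPM in each library (log axis) of 15 ATG genes in the 4 groups, with a line at the group mean. ATG41, ATG8, ATG19 and ATG40 separate by temperature in both strains, and ATG9 and ATG5 are lower after heat. The heated libraries of ATG32 lie above the others in XH7 and below them in Z100. ATG22 is highest in the heated XH7 libraries. ATG15 has its highest mean there, but its heated libraries overlap between the strains.

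Without heat shock the number of ATG genes that differed between the strains depended on the fit. At 30 °C edgeR called 4 higher and 2 lower in Z100, where 14.3% of all genes were called higher and 14.1% lower (28.4% in either direction). DESeq2 called 8 higher, with 2113 genes called in all in either direction. The fit of the 30 °C libraries alone called 14 higher, with 3155 genes called in all. The number of members called higher also moved when a single library was left out, and so did the number of all genes called. The median log2 fold change of the members was 0.15, and that of all genes -0.08. ATG33 had the largest difference, 11.3 CPM in both XH7 libraries against 26.1, 38.6 and 25.7 in Z100 (1.41 ± 0.24, adjusted p = 0.0037, edgeR). ATG41 was higher by 1.08 ± 0.33 (adjusted p = 0.035, edgeR), with 14.0 and 11.4 CPM in XH7 against 18.8 to 37.8 in Z100. ATG4 was at 16.5 and 15.2 CPM in XH7 and at 26.1, 31.2 and 29.0 in Z100 (0.86 ± 0.17, adjusted p = 0.0072, edgeR), and ATG2 was at 22.7 and 19.3 CPM against 27.1, 33.5 and 33.0 (0.57 ± 0.18, adjusted p = 0.037, edgeR). In each of these 4 the strains did not overlap, but neither did they in members not called, among them ATG1, ATG8, ATG13 and ATG26.

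ATG23 was lower in Z100, at 7.85, 7.05 and 6.84 CPM against 11.7 and 15.4 in XH7 (-0.90 ± 0.24, adjusted p = 0.021, edgeR). ATG11 was lower as well, at 21.9, 15.9 and 20.4 CPM against 30.4 and 31.3 (-0.67 ± 0.17, adjusted p = 0.02, edgeR). All 6 calls ended without XH7 30 °C replicate 2, and all but that of ATG33 without XH7 30 °C replicate 1. Those of ATG2, ATG11 and ATG23 also ended without Z100 30 °C replicate 2 or 3, and that of ATG41 without Z100 30 °C replicate 1 or 3. Without 1 of the XH7 30 °C libraries, a lone library stands for that group. Over all fits with 1 library left out the 6 kept their direction. ATG33 was at 1.2 to 1.52, ATG4 at 0.8 to 0.93, ATG41 at 0.75 to 1.28 and ATG2 at 0.46 to 0.69. ATG11 was at -0.76 to -0.54 and ATG23 at -1.09 to -0.69. ATG2, ATG11 and ATG41 were not called with library size only. Among the 28 members not called, the values ran from -0.60 (ATG31) to 0.88 (ATG39). Those of ATG8 and ATG19 were 0.73 ± 0.28 and 0.59 ± 0.22 (adjusted p = 0.079 and 0.073, edgeR).

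After heat shock edgeR called 1 member higher in Z100 and 1 lower, where 4.02% and 4.94% of all genes were called (8.96% in either direction). DESeq2 called 6 higher and 1 lower, with 1070 genes called in all against 539 by edgeR. Without XH7 50 °C replicate 2 edgeR gave 0.735, 1.097, 1.153 and 1.452 for ATG3, ATG19, ATG21 and ATG39, and -1.402 for ATG15. Without replicate 1 of that group these values were 0.234, 0.416, 0.179, 0.588 and -0.172. ATG34 was at 28.9, 37.3 and 37.7 CPM in Z100 and at 18.5 and 21.8 in XH7 (0.78 ± 0.20, adjusted p = 0.042, edgeR), with no overlap. This call ended without any library but Z100 30 °C replicate 2 and Z100 50 °C replicate 1 (adjusted p up to 0.12), in the fit of the 50 °C libraries alone and with library size only. ATG22 was lower, at 54.9, 35.5 and 46.1 CPM against 115 and 74.1 (-1.06 ± 0.23, adjusted p = 0.027, edgeR), also with no overlap. Its call ended when Z100 50 °C replicate 3, XH7 50 °C replicate 1 or 1 of the XH7 30 °C libraries was left out (highest adjusted p 0.099), and in the fit of the 50 °C libraries alone. Of the 32 members not called, ATG10 was lowest at -1.01 ± 0.39 and ATG39 highest at 0.94 ± 0.30. Some of these also had no overlap between the strains, among them ATG14, ATG19 and ATG39. ATG41 was at 0.65 ± 0.32 (adjusted p = 0.23, edgeR).

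**Figure D4:**
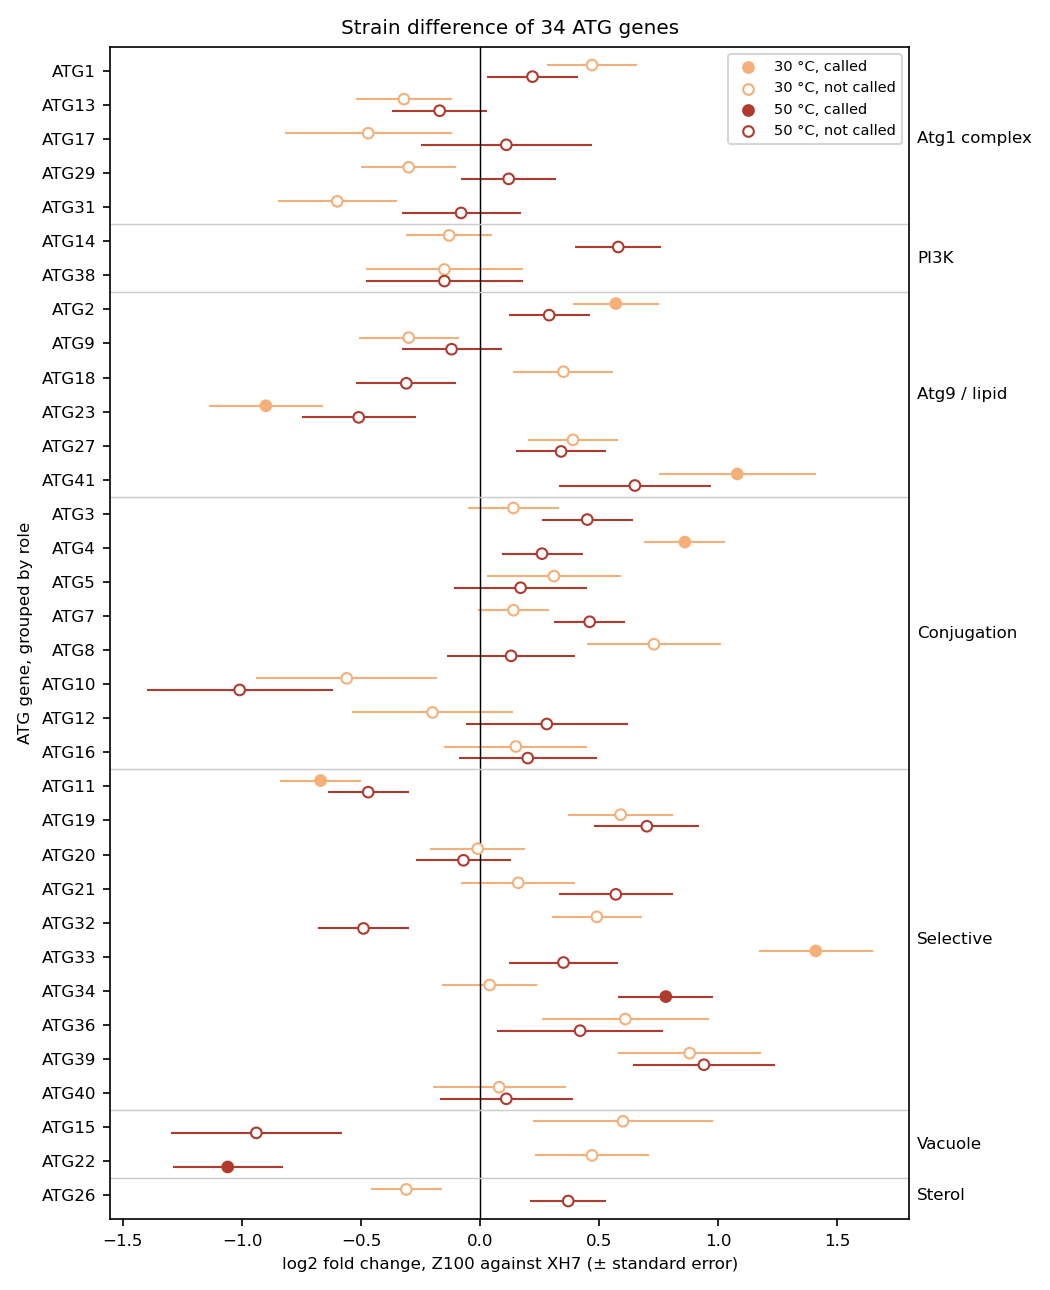
Log2 fold change of the 34 ATG genes in Z100 against XH7 at 30 °C (light) and at 50 °C (dark), grouped by role, with standard errors as bars; filled points passed the test at an adjusted p under 0.05. ATG33 lies furthest right at 30 °C with 1.41, and ATG22 furthest left at 50 °C with -1.06.

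Genes that act with the ATG proteins under other names went in both directions. Of 64 such genes 20 rose and 13 fell in XH7, and 29 rose and 16 fell in Z100, with median log2 fold changes of 0.19 and 0.37. Among all genes 31.3% were called higher and 32% lower in XH7, and 33.8% and 36.2% in Z100, so the rises in XH7 were at about the rate of all genes. With library size only 10 rose and 22 fell in XH7 and 14 rose in Z100, where 31.4% and 28.1% of all genes called in the 2 strains were higher. Without XH7 30 °C replicate 1 or 2 or XH7 50 °C replicate 1 the 13 were 8, 7 and 7. Of the 5 cargo and adaptor genes 4 rose in XH7 and 3 in Z100. AMS1, the mannosidase carried by Atg19 and Atg34, rose by 4.11 ± 0.34 and 4.11 ± 0.28, and APE1, the main cargo of Atg19, by 3.40 ± 0.21 and 3.01 ± 0.17.

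Of the other lipid kinase and sorting nexin genes 2 of 5 rose in XH7, and 3 rose and 1 fell in Z100. SNX4, the sorting nexin partner of Atg20, rose by 1.05 ± 0.19 and 2.10 ± 0.16, and SNX41, another nexin, fell by 0.66 on the log2 scale in Z100. The SNX4 call in XH7 ended with library size only, and that of SNX41 when replicate 3 of Z100 at 30 °C, or replicate 2 or 3 of the heated Z100 libraries, was left out (highest adjusted p 0.06). The difference between the SNX4 rises was 1.05 ± 0.25 (adjusted p = 0.046, edgeR), a call that ended with library size only (adjusted p = 0.18), and without any library but Z100 50 °C replicate 1 and XH7 50 °C replicate 2 (adjusted p up to 0.25). Of 16 genes of TORC1 and its upstream complexes 3 rose and 4 fell in XH7, and 6 rose and 6 fell in Z100. LST8, a TORC1 subunit, rose by 6.12 ± 0.32 and 6.03 ± 0.26, and SEA3 of the SEA complex, listed as MTC5, was at -1.79 ± 0.17 and -2.07 ± 0.14.

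Of 13 genes for fusion with the vacuole 2 rose and 5 fell in XH7, and 4 rose and 4 fell in Z100. VTI1, a SNARE protein, rose by 1.58 ± 0.24 and 2.02 ± 0.20. CCZ1, which helps to activate the vacuolar GTPase Ypt7, was at -1 ± 0.36 and -1.42 ± 0.30, and its XH7 call ended without any of the 4 XH7 libraries (adjusted p up to 0.11). Of 13 genes for membrane sources and tethering 5 rose and 1 fell in XH7, and 8 rose and 1 fell in Z100. The largest rises were those of VPS13, a lipid transfer protein, in XH7 (1.61 ± 0.32) and of NVJ1, which joins nucleus and vacuole, in Z100 (2.16 ± 0.17). Of 12 genes assigned to the control of ATG transcription 4 rose and 3 fell in XH7, and 5 rose and 4 fell in Z100. DHH1, an RNA helicase, rose by 2.17 ± 0.17 and 2.58 ± 0.14, and GCN4, the activator of amino acid synthesis, was at -2.03 ± 0.26 and -1.95 ± 0.21.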

How the data were processed

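Messenger RNA was measured in 10 libraries, which the labels put into 4 groups by strain and temperature. Per the labels' protocols, TRIzol extraction was followed by poly(A) selection, an unstranded NEBNext Ultra kit and NovaSeq sequencing. Which aligner and counter the authors ran is not given in the sources used here. The authors deposited raw counts per gene, 51901045 to 81442848 per library over 6059 genes, and FPKM values, the same counts scaled by them to gene length and library total. Here the counts were tested, and the deposited FPKM served only to compare levels between genes. Positions in the tables are those of the R64 genome, and all 34 ATG genes matched it.

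Counts of all genes were fitted with edgeR 4.0.16 (limma 3.58.1, R 4.3.3) with TMM scaling, the filterByExpr filter, which left 6015 genes and all 34 ATG genes, 4 group means over all 10 libraries, and a quasi-likelihood F test with Benjamini-Hochberg adjustment over all genes tested. Each standard error was taken from the F statistic and the log2 fold change. The procedure was tested on simulated data. CPM are the counts scaled to the TMM library sizes. The SDs of log2 CPM used CPM + 0.1.

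The members and the gene lists were chosen with earlier results of these data known. The text gives every library's value for 14 genes that stand for the roles and for the 3 largest called rises and falls of each comparison. ATG2, ATG16, ATG17 and ATG26, also given with library values, fall outside this rule. So do the genes beside ATG9, ATG19, ATG22 and ATG34. All of these were chosen after their values were seen. The alternatives run were RLE scaling, library size only, no filter, DESeq2 1.42.0, separate fits of the groups compared, a block for the replicate number, and omission of each library in turn. A lone XH7 library then takes its spread from the remaining groups. Promoter windows were read from the R64 genome, copies were searched with BLAST 2.17.0, and plots were made with Python 3.11.15 and matplotlib 3.10.9. The transcript tables repeat the gene tables and were not used.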

Additional observations from a re-analysis of the deposited data

Results flagged for a closer look

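ATG22, the vacuolar amino acid transporter gene, responded differently to heat in the 2 strains by the test of that difference: -1.53 (log2, Z100 response minus XH7 response; standard error 0.34, adjusted p = 0.035, edgeR). The call was lost in 8 of 10 fits that left out 1 library (adjusted p up to 0.22). The CPM rose 3.75-fold in XH7 and were 1.30-fold higher in Z100. No other member met a condition for a closer look, and groups of 2 or 3 libraries were not searched for libraries that stand apart.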

How the results depend on the processing

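The members called in the heat comparisons kept their direction under all alternatives run. With library size only, 5 members fell in XH7 and 9 in Z100, 2 were higher and 1 lower in Z100 at 30 °C, and 0 were higher and 2 lower at 50 °C. Of all genes called with that scaling, 31.4% were higher for heat in XH7 and 28.1% for heat in Z100. Between the strains 51.3% of the calls were higher in Z100 at 30 °C and 17.7% at 50 °C. Uncalled values of members were followed over the alternatives only from a log2 fold change of 0.35 in either direction. ATG11 and ATG33 for heat in Z100 were added to these. Of the values followed, library size only turned the XH7 heat values of ATG17, ATG18 and ATG32 to -0.15, -0.10 and -0.051. It turned the Z100 values of ATG22 and ATG33 to -0.28 and -0.52. Smaller values that it may also have turned were not followed. Of these 5 ATG33 was then called lower (adjusted p = 0.022, edgeR) and the other 4 were not called. DESeq2 called 8 members higher in Z100 at 30 °C and 6 at 50 °C. For the difference of responses it called 2 higher and 4 lower. In all it called 2113 genes at 30 °C, 1070 at 50 °C and 841 for the difference. Fits of the compared groups alone called 14 members higher at 30 °C and 0 in either direction at 50 °C, with 3155 and 4 genes in all.

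Leaving out single libraries gave 19 to 22 members higher and 1 to 3 lower for heat in XH7 (3053 to 3940 genes called in all), and 18 to 22 and 3 to 4 in Z100 (3837 to 4415). For the strains it gave 0 to 10 and 0 to 2 at 30 °C (292 to 2223) and 0 to 4 and 0 to 3 at 50 °C (146 to 607), and for the difference of responses 0 to 1 and 0 to 4 (2 to 1065). The pathway genes ranged over 17 to 23 higher and 7 to 14 lower in XH7, and 27 to 33 and 12 to 16 in Z100; with library size only 10 rose and 22 fell in XH7 and 14 rose in Z100. Of the uncalled values followed, ATG17 for heat in XH7 changed sign (-0.093 to 0.739, lowest without XH7 50 °C replicate 2). So did ATG33 for heat in Z100 (-0.013 to 0.309, lowest without Z100 30 °C replicate 3). ATG36 between strains at 50 °C did as well (-0.012 to 1.080, lowest without XH7 50 °C replicate 2). Members with smaller values, which were not followed, may also have changed sign.

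With the replicate number as a block, 2 members were higher in Z100 at 30 °C, where ATG2 and ATG41 lost their calls, and 0 at 50 °C, where ATG34 lost its call. ATG12 was then called lower for heat in XH7 (-0.83, adjusted p = 0.042, edgeR), and ATG31 lower in Z100 at 30 °C (-0.77, adjusted p = 0.038, edgeR), and 240 and 152 genes were called in all at 50 °C and for the difference. Same-numbered Z100 libraries had correlated deviations of -0.122, -0.11 and 0.145 between temperatures, so the numbers were not shown to pair the libraries across temperatures. Between the 2 strains at 50 °C the correlations were 0.635 and 0.529 for the same number, and -0.529 and -0.635 for unlike numbers 1 and 2. Same-numbered heated libraries thus deviated together, though the deviations of 2 XH7 libraries mirror each other. At 30 °C the same-number values were -0.107 and -0.145. The causes of these changes were not tested. Strain differences rest on 2 XH7 libraries at each temperature, and 12 members at 30 °C, 13 at 50 °C and 8 for the difference had an unadjusted p under 0.05 (edgeR).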

Other observations

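The R64 annotation gives ATG names to further genes that the deposited table lists without a symbol. ATG42 (YBR139W), for a vacuolar carboxypeptidase, rose by 4.24 ± 0.25 in XH7 and by 3.32 ± 0.20 in Z100 (adjusted p = 1.1e-06 and 3.9e-07, edgeR). It was higher in Z100 at 30 °C by 1.43 ± 0.21 (adjusted p = 0.0019, edgeR). ATG45 (YIL024C) rose by 1.42 ± 0.23 and 0.73 ± 0.19 (adjusted p = 0.00038 and 0.0052, edgeR), and its Z100 call ended with library size only (0.10, adjusted p = 0.65).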
